A study of Sus scrofa domesticus with 4 samples.

Results

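The genes described here encode subunits of the mitochondrial respiratory chain and of ATP synthase, with the electron carrier cytochrome c. They were taken from the array by name: every probe whose accession belongs, in the RefSeq annotation of the pig assembly Sscrofa11.1, to a gene whose symbol starts with NDUF (complex I), is an SDH subunit (complex II), starts with UQCR or is CYC1 (complex III), starts with COX4 to COX8 (complex IV) or starts with ATP5 (complex V), and CYCS (cytochrome c). This gave 21 genes with 80 probes, of 2459 genes that could be named and 43603 probes in all. Complex I had 5 genes (NDUFA4, NDUFB6, NDUFB8, NDUFC1 and NDUFV2), complex II had 2 (SDHB and SDHD), complex III had 1 (UQCR10) and complex IV had 7 (COX5B, COX6B, COX6C, COX7A1, COX7A2, COX7C and COX8H). Complex V had 5 (ATP5E, ATP5G1, ATP5I, ATP5J2 and ATP5O), and CYCS stood alone. No probe was matched to CYC1. Only 5578 of the 43603 probes were matched to a RefSeq gene, so these are the subunits that could be named and not the full complexes.

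The cells were primary anterior pituitary cells of gilts (young female pigs) of the Large White × Polish Landrace cross, 7 to 8 months old, taken on days 10 to 12 of the oestrous cycle, in the mid-luteal phase. A tag in the labels speaks of pregnancy for the same days, and the protocol's account of the cycle was followed. Pituitaries of 4 gilts were dispersed with trypsin and left to attach for 48 h. Treated cells then spent 24 h in medium without serum with recombinant human adiponectin, a hormone made by fat tissue, at 10 µg/ml, and control cells spent the same 24 h in that medium without it. Both media held bacitracin, and the labels name no genetic change. Each of 4 two-colour arrays held labelled RNA of treated cells and of control cells, so an array gives 1 ratio of treated over control per probe. The labels do not tie a gilt to an array, and the p-values measure the spread between these 4 arrays. The culture mixes the cell types of the anterior lobe, and in such bulk RNA a change in the number of cells of a type cannot be told apart from a change in RNA per cell.

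Complex I takes electrons from NADH and complex II takes them from succinate, both passing them to ubiquinone. Complex III hands them on to cytochrome c, and complex IV passes them from cytochrome c to oxygen. Complexes I, III and IV pump protons across the inner mitochondrial membrane, and ATP synthase, or complex V, makes ATP as the protons flow back. In metabolic tissues such as muscle and liver, adiponectin is known to act through AMP-activated protein kinase and to raise fatty acid oxidation and mitochondrial content. The pituitary's hormone-secreting cells use mitochondrial ATP for the synthesis and release of their hormones.

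By the channel labels, treated cells carried the red dye Cy5 on arrays 1 and 3, and the green dye Cy3 on arrays 2 and 4. A probe was tested where its treated or its control channel stood well above background on 3 or more arrays and 3 or more arrays gave a usable ratio. This held for 25912 probes, 875 of them with 3 arrays, and no spot was saturated. Well above background were 25089 to 29734 probes in a channel. Of the 12 tested genes that mark endocrine cells of the anterior lobe, GH1, PRL, POMC, LHB, FSHB and TSHB encode pituitary hormones or their subunits, and all were detected. CGA, the alpha subunit shared by LH, FSH and TSH, was on the array and not tested. Transcripts marking other tissue were detected too, among them OXT of the posterior lobe and TNNT1 of striated muscle. Of the 80 respiratory chain and ATP synthase probes, 75 probes in 20 genes were tested, 70 of them with 4 arrays, and all 75 stood well above background in both channels on all 4 arrays. A gene's value below is that of its brightest tested probe unless its other probes are named. Each value is the log2 ratio of treated to control cells from a limma fit with a dye term, with 95% intervals, and values on single arrays still contain the dye effect.

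No difference between adiponectin-treated and control cells passed the test in any of the 20 genes, and the ratios were small. The fitted ratios ran from -0.04 (CYCS, 0.971-fold) to 0.14 (ATP5J2, 1.10-fold). Their 95% intervals together covered 0.849-fold to 1.29-fold. With Benjamini-Hochberg adjustment over all probes, limma called 0 of the 20 genes and 0 of their 75 probes at an adjusted p under 0.05, where 0% of all 25912 tested probes were called. At an unadjusted p under 0.05, 0 of the 20 genes and 0 of the 75 probes passed, where 2.77% of all tested probes (717) did. The smallest unadjusted p among the 75 probes was 0.054, for a probe of NDUFA4.

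The intervals set a limit on how large a change could have been missed. The whole 95% interval lay within a 1.2-fold change either way for 18 of 20 genes, the others being COX6C and ATP5J2. At the level of probes it did so for 65 of 75, or 86.7%, against 78.1% of all tested probes. A change of 1.5-fold lay outside the interval of each of the 20 genes and of 74 of 75 probes, the exception being a probe of SDHB. The 1.2-fold limit is that of loess with the channel labels, and not every other way of processing was checked for it. With each array centred on its median in place of loess, 1 of 20 genes (CYCS) and 10 of 75 probes kept the interval within 1.2-fold. Within 1.5-fold it stayed for 20 of 20 genes and 73 of 75 probes. With Cy5 read as treated on every array, a reading given below, probes of COX7A2, NDUFC1 and ATP5O were themselves beyond 1.2-fold. They were at -0.44, -0.43 and -0.41.

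**Figure D1:**
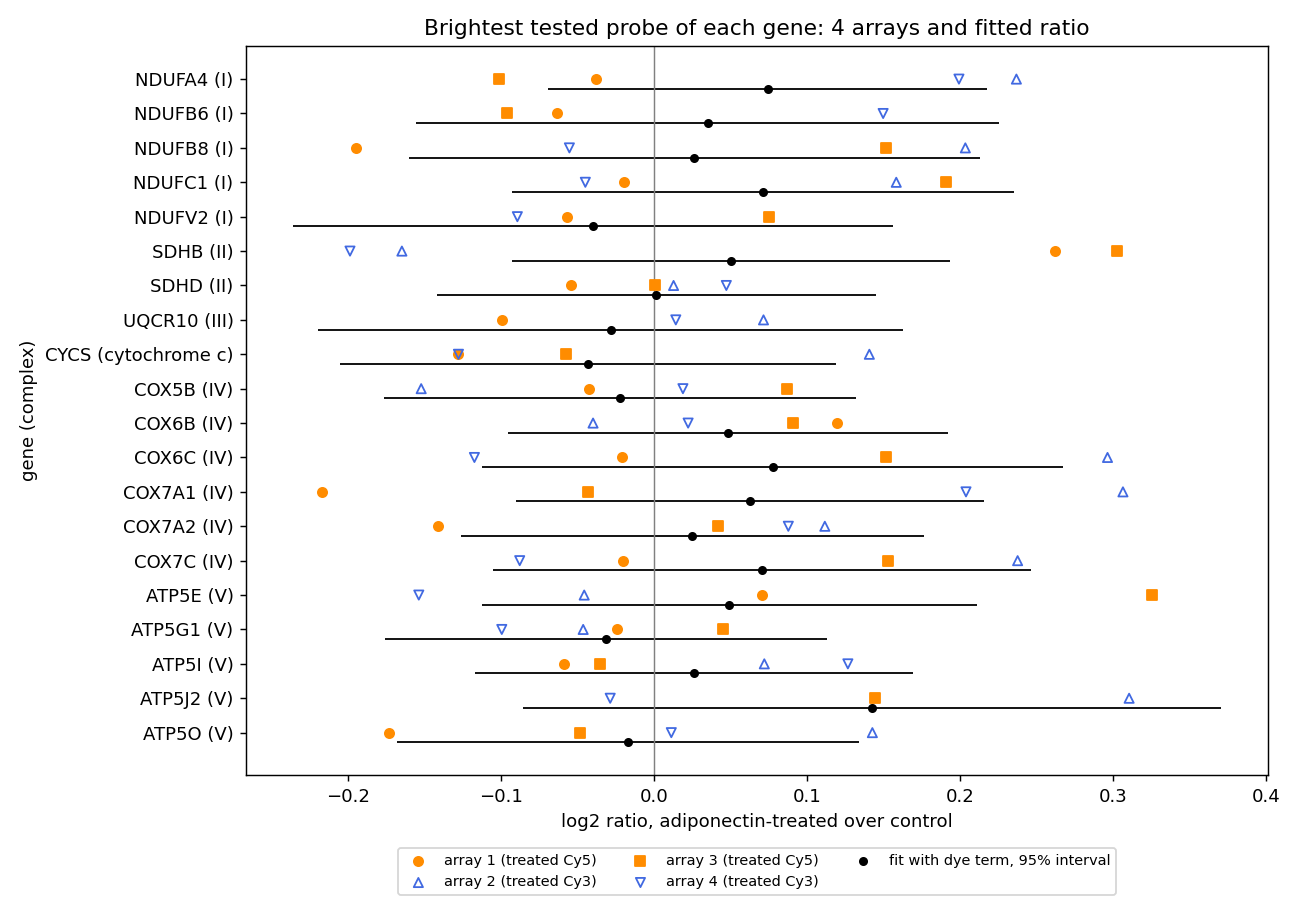
Log2 ratio of treated over control cells (horizontal axis) for the brightest tested probe of each of the 20 genes (vertical axis, complex in brackets). Filled orange symbols are arrays with treated RNA in Cy5, open blue symbols those with treated RNA in Cy3, and the black point with its bar below them is the fitted ratio with its 95% interval (n = 4 arrays, or 3 for NDUFB6, NDUFV2, UQCR10 and ATP5J2). Every interval crosses 0, and for genes such as SDHB, NDUFA4 and COX7A1 the 2 dye orientations lie on opposite sides of 0.

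More of the ratios lay above 0 than below it: 14 of 20 genes and 51 of 75 probes (68.0%) were above 0, against 50.7% of all tested probes. The 6 genes below 0 were NDUFV2, UQCR10, CYCS, COX5B, ATP5G1 and ATP5O. The median ratio was 0.031 over the 20 genes, against 0.0012 over all tested probes and 0.0060 over the 1956 named genes tested. By complex, the median over genes was 0.04 in complex I, 0.03 in complex II, 0.06 in complex IV and 0.03 in complex V. UQCR10 of complex III and CYCS were at -0.03 and -0.04. Probes of 1 gene share their transcript, and genes share the 4 arrays, so these counts describe the set and carry no test.

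The median rested on single arrays. Leaving out array 1 gave 0.059, leaving out array 2 gave 0.019, leaving out array 3 gave 0.00063 and leaving out array 4 gave 0.052. Of the genes with a value, 17 of 19, 11 of 19, 10 of 20 and 16 of 19 were above 0 in these 4 fits.

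NDUFA4, named as a complex I subunit and now assigned by biochemical work to complex IV, had fitted ratios above 0 in all its probes under the channel labels. Its brightest probe read -0.04, 0.24, -0.10 and 0.20 on arrays 1 to 4, above 0 where the treated RNA was in Cy3 and below 0 where it was in Cy5. The fitted ratio was 0.07 (-0.07 to 0.22). Over its 6 probes the fitted ratios ran from 0.04 to 0.15, while the values on array 1 alone ran from -0.35 to 0.24. For 3 of the 6, all 4 arrays lay above 0. The probe with the smallest p read 0.14, 0.08, 0.13 and 0.23 on the 4 arrays, with a fitted ratio of 0.15 (-0.003 to 0.29, unadjusted p = 0.054 and adjusted p = 1.00 by limma). The mean of the 6 probes had a ratio of 0.09 (-0.05 to 0.23).

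The other complex I genes showed smaller or more scattered values. NDUFB6 and NDUFB8 encode accessory subunits of the membrane arm. NDUFB6 was measured on 3 arrays by its brightest probe, at -0.06, -0.10 and 0.15 on arrays 1, 3 and 4, with a fitted ratio of 0.04 (-0.16 to 0.23). NDUFB8 read -0.19, 0.20, 0.15 and -0.06 on arrays 1 to 4, with a fitted ratio of 0.03 (-0.16 to 0.21), and its 4 probes ran from -0.006 to 0.08. In both genes arrays lay on either side of 0.

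NDUFC1, a small accessory subunit, had 2 probes with the same fitted ratio of 0.07 but different arrays behind it. The brighter probe read -0.02, 0.16, 0.19 and -0.04, with an interval of -0.09 to 0.24. The other probe read -0.46, 0.57, -0.25 and 0.43, with a fitted ratio of 0.07 (-0.09 to 0.23) and a dye term of -0.43. Its signs followed the dye and cancelled in the fit. NDUFV2, a core subunit of the NADH-oxidising module that carries an iron-sulphur cluster, was the complex I gene below 0, with a ratio of -0.04 (-0.24 to 0.16) from arrays 1, 3 and 4. Of its 5 probes 4 lay below 0, and all 5 were between -0.04 and 0.005.

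Complex II differs from the others in that it is also an enzyme of the citrate cycle. SDHB, its iron-sulphur subunit, read 0.26, -0.16, 0.30 and -0.20 on arrays 1 to 4 with its brightest probe, with a fitted ratio of 0.05 (-0.09 to 0.19). The arrays with treated RNA in Cy5 lay above 0 and the others below. All 7 SDHB probes had a fitted ratio above 0. Of these, 6 lay between 0.01 and 0.08.

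The remaining SDHB probe had the highest ratio of all 25912 tested probes, at 0.63 (-0.03 to 1.29, unadjusted p = 0.059 and adjusted p = 1.00 by limma). It read 2.49, -0.05, 0.19 and -0.12 on arrays 1 to 4, so 1 array carried the ratio. On array 1 its single spot had a median intensity of 208 in the control channel and 1753 in the treated channel, before background correction. On the other arrays the same probe gave 1881 to 2903 in both channels. The red local background beside this spot was 87 on array 1 and 26 to 31 on the other arrays. Without array 1 its ratio was 0.05. In the fits without array 2, 3 or 4, which keep array 1, it was 0.61, 1.202 and 0.65. The other 6 SDHB probes stayed between -0.23 and 0.33 on every array.

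SDHD, a membrane anchor of complex II near the ubiquinone site, lay near 0. Its brightest probe read -0.05, 0.01, 0.0009 and 0.05, with a fitted ratio of 0.002 (-0.14 to 0.15). Of its 5 probes 4 were above 0, and they ran from -0.04 to 0.03.

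UQCR10, a small subunit of complex III, had a single probe, at -0.10, 0.07 and 0.01 on arrays 1, 2 and 4. Its ratio was -0.03 (-0.22 to 0.16). The spot on array 3 was left out for an uneven local background, and with it the ratio was 0.02.

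CYCS, the soluble carrier between complexes III and IV that also triggers apoptosis when it leaves the mitochondrion, had the most probes of the 20 genes. The brightest probe read -0.13, 0.14, -0.06 and -0.13 on arrays 1 to 4, with a fitted ratio of -0.04 (-0.21 to 0.12). Of its 12 probes 8 lay below 0, and all 12 were between -0.07 and 0.03. Array 4 stood apart for this gene: there 11 of 12 probes were below 0, from -0.59 to 0.16 with a median of -0.22. On arrays 1, 2 and 3 the medians over the 12 probes were -0.009, 0.10 and 0.04. The low array was thus 1 of 4, and on array 2, which has the same dye orientation, 9 of 12 probes were above 0. Averaged over its probes the gene had a ratio of -0.03 (-0.20 to 0.15), and without array 4 the ratio of its brightest probe was 0.02.

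**Figure D2:**
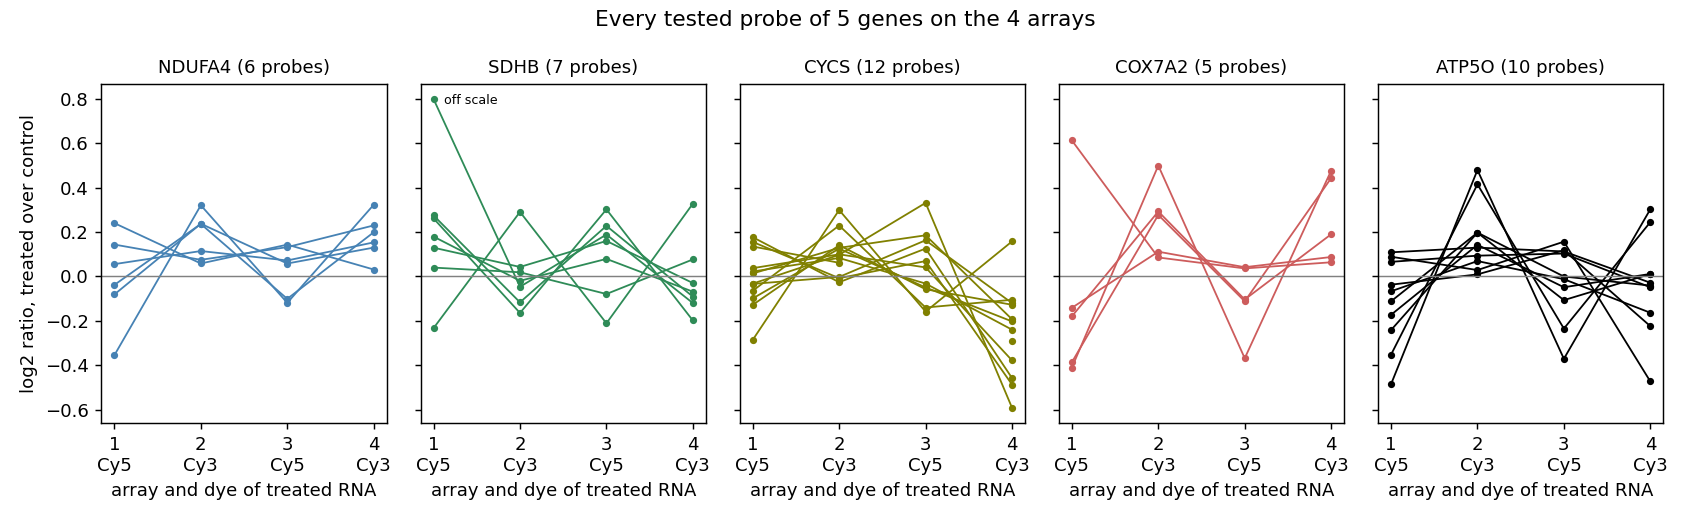
Log2 ratio of treated over control (vertical axis) of each tested probe of NDUFA4, SDHB, CYCS, COX7A2 and ATP5O on the 4 arrays (horizontal axis, with the dye of the treated RNA below the array number), with 1 line per probe. One SDHB value on array 1 (2.49) lies off the scale, 11 of 12 CYCS probes are below 0 on array 4, and some probes of COX7A2 and ATP5O swing with the dye while others of the same gene stay flat.

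Of the 6 tested genes of complex IV, cytochrome c oxidase, 5 were above 0. Its gene median of 0.06 was above that of the other complexes here. With NDUFA4 counted in complex I by its symbol, it was below complex I with the scanner software's log ratio (0.046 against 0.051). It was so with median centring too (0.132 against 0.139). With the mean of each gene's probes, which takes in the SDHB probe carried by array 1, it was below complex II (0.067 against 0.070). With Cy5 read as treated, it was -0.008, against 0.10 for complex II. The complex IV median was also below complex II with array 2 left out, and below complex I with array 4 left out. COX6C, a small membrane subunit, read -0.02, 0.30, 0.15 and -0.12 on arrays 1 to 4, with a fitted ratio of 0.08 (-0.11 to 0.27). Its 3 probes were all above 0, at 0.08, 0.09 and 0.14. The highest of them was above 0 on all 4 arrays, at 0.04, 0.23, 0.24 and 0.05 (fitted ratio 0.14, -0.02 to 0.30, unadjusted p = 0.079 and adjusted p = 1.00 by limma). Array 2 was the highest array for the brightest probe, and without it the gene's ratio was -0.03.

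COX7A2, the widely expressed isoform of subunit 7a, had 5 probes above 0, from 0.03 to 0.20. The brightest read -0.14, 0.11, 0.04 and 0.09, with a fitted ratio of 0.03 (-0.13 to 0.18). The highest of the 5 probes read 0.61 on array 1 and 0.09, 0.04 and 0.06 on arrays 2 to 4, with a fitted ratio of 0.20 (-0.01 to 0.42). Without array 1 that ratio was 0.06. Its control intensity on array 1 was 4599, against 12152 to 18529 in both channels of arrays 2 to 4, and its treated intensity there was 10040. This is the same array and the same channel in which the SDHB probe was low.

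COX7A1, the isoform of subunit 7a known from heart and skeletal muscle, stood well above background in both channels on all 4 arrays in these pituitary cultures. Its single probe read -0.22, 0.31, -0.04 and 0.20, with signs that followed the dye, and the fitted ratio was 0.06 (-0.09 to 0.22). COX8H, the heart and muscle form of subunit 8, was not well above background in either channel on any of the 4 arrays with either of its 2 probes, so it has no fold. Of 16 listed striated muscle genes 7 were tested. Their ratios were above 0 for 5 of 7, with a median of 0.06, and 3 passed an unadjusted p of 0.05 in limma: MYH7 at 0.35, TNNC1 at 0.19 and TNNT1 at 0.19 (each adjusted p = 1.00). MYH7 read -0.03, 1.02, 0.10 and 0.32 on arrays 1 to 4, and its ratio was 0.18 without array 2 and 0.53 without array 4. With Cy5 read as treated it was -0.32, and 5 of the 7 muscle genes were below 0. Their part in the COX7A1 value was not tested.

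The remaining complex IV subunits had fitted ratios from -0.02 to 0.07. COX6B, which faces the intermembrane space where cytochrome c docks, read 0.12, -0.04, 0.09 and 0.02, with a fitted ratio of 0.05 (-0.09 to 0.19), and its other probe was at 0.04. COX5B, a nuclear-encoded subunit on the matrix side, read -0.04, -0.15, 0.09 and 0.02, with a fitted ratio of -0.02 (-0.18 to 0.13), and its second tested probe was at 0.03. The sign of COX5B thus depended on the probe. COX7C, a small membrane subunit, read -0.02, 0.24, 0.15 and -0.09, with a fitted ratio of 0.07 (-0.10 to 0.25). Another COX5B probe and 2 more COX7C probes were left out because the scanner software marked an uneven local background on 2 or 3 arrays. With those spots kept, the COX5B probe was at 0.02 and the COX7C probes were at 0.14 and 0.09. Uneven background touched 10% of the 80 probes on at least 1 array, against 5.76% of all probes.

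Complex V holds the catalytic F1 head, a rotor in the membrane and a stalk that keeps the head still. ATP5J2, the f subunit of the membrane part, had the highest ratio of the 20 genes, from 3 arrays: 0.31, 0.14 and -0.03 on arrays 2, 3 and 4. The fitted ratio was 0.14 (-0.09 to 0.37, 1.10-fold, unadjusted p = 0.18 and adjusted p = 1.00 by limma). Its second probe, measured on 4 arrays, was at 0.05 (-0.12 to 0.22). Array 4 was the lowest array for both probes. The place of this gene at the top rested on the processing. With array 2, 3 or 4 left out its second probe stood in, at -0.03, 0.01 and 0.13, and with Cy5 read as treated the ratio was -0.05. By the mean of each gene's probes SDHB (0.13) lay above it (0.10). The SDHB mean includes the probe at 0.63 that array 1 carried. With median centring NDUFB6 (0.21, from 3 arrays) lay above ATP5J2 (0.19), and their second probes were at 0.12 and 0.13.

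ATP5E, the epsilon subunit of the rotor shaft, read 0.07, -0.05, 0.33 and -0.15, with a fitted ratio of 0.05 (-0.11 to 0.21). Its other probe was at 0.08, from 0.44, -0.55, 0.41 and 0.02 on the 4 arrays, with a dye term of 0.34. ATP5G1 is 1 of several genes that encode subunit c, the ring of the rotor. Its probe read -0.02, -0.05, 0.05 and -0.10, with a fitted ratio of -0.03 (-0.18 to 0.11). ATP5I, the e subunit of the membrane part, read -0.06, 0.07, -0.04 and 0.13, with a fitted ratio of 0.03 (-0.12 to 0.17). Its other probe read -0.31, 0.40, -0.27 and 0.54, with a fitted ratio of 0.09 (-0.06 to 0.24) and a dye term of -0.38.

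ATP5O encodes the oligomycin-sensitivity conferring protein of the stalk and had 10 probes. The brightest read -0.17, 0.14, -0.05 and 0.01, with a fitted ratio of -0.02 (-0.17 to 0.13). Of the 10 probes 7 lay below 0, and they ran from -0.05 to 0.08. On array 2 all 10 probes were above 0, from 0.01 to 0.48, and on array 1 7 of 10 were below 0. On arrays 3 and 4 the probes split, with 4 of 10 above 0 on each, from -0.37 to 0.16 and from -0.47 to 0.30.

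**Figure D3:**
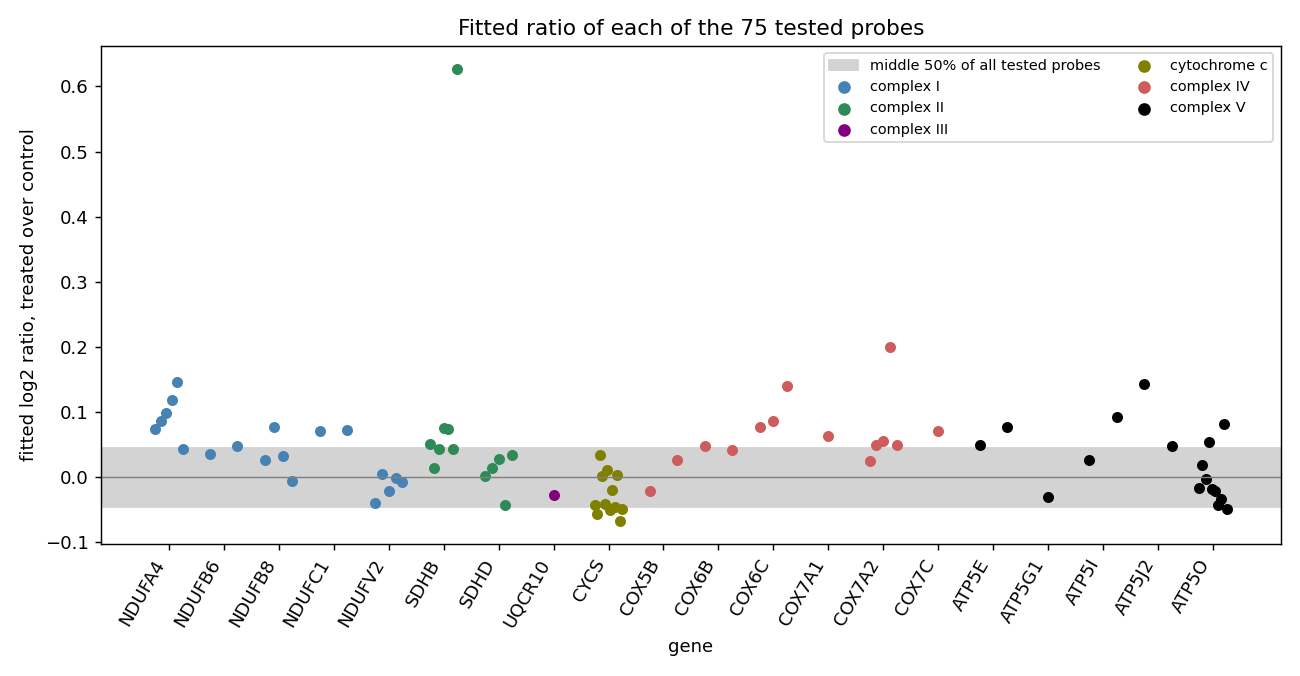
Fitted log2 ratio of treated over control (vertical axis) of each of the 75 tested probes, placed by gene (horizontal axis) and coloured by complex. The grey band holds the middle 50% of all tested probes, from -0.05 to 0.04; the SDHB probe at 0.63 stands alone, and all 6 NDUFA4 probes are above 0.

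Few probes had 1 sign on all arrays. This held for 5 of 75 probes (6.67%), against 6.22% of all tested probes, and for 0 of the 20 genes by the brightest probe. The 5 were 3 of NDUFA4, 1 of COX6C and 1 of COX7A2, all above 0. Among the 9 genes with 3 or more tested probes, all probes lay above 0 in NDUFA4, SDHB, COX6C and COX7A2, under the channel labels and loess normalization. None of the 9 had all probes below 0.

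The dye was the larger term for most probes. The dye term exceeded the treatment term in size for 55 of 75 probes (73.3%), against 72.0% of all tested probes. Across the 75 probes, the treated over control ratios of arrays with the same dye orientation correlated at 0.48 (arrays 1 and 3) and 0.53 (arrays 2 and 4). Between arrays of opposite orientation the correlation ran from -0.67 to -0.35. Over all tested probes the same values were 0.57, 0.26 and -0.48 to -0.43. These are correlations across probes, which are not independent and share arrays, and they are given as a description. Probes of 1 gene differed more in the dye term than in the treatment term: the median SD between probes of a gene was 0.13 for the dye term and 0.03 for the ratio, and the dye SD was the larger in 8 of 9 genes.

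**Figure D4:**
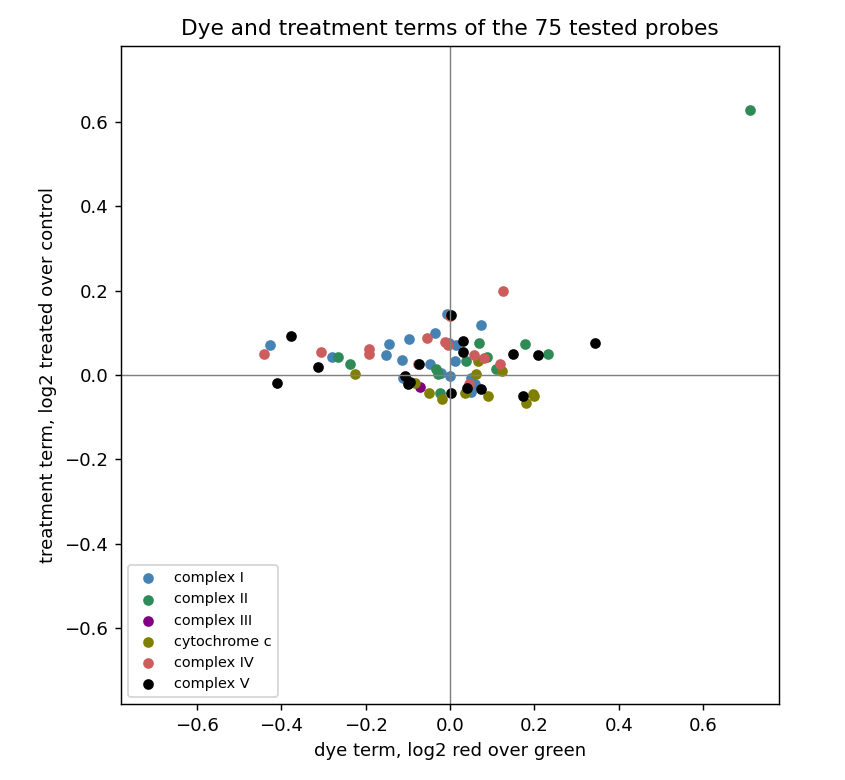
Dye term (horizontal axis, log2 red over green) against treatment term (vertical axis, log2 treated over control) of the 75 tested probes, on equal scales and coloured by complex. The points spread more along the dye axis than along the treatment axis, and the SDHB probe carried by 1 array is high on both.

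The labelling protocol reads otherwise than the channel labels: it names Cy3 for the control and Cy5 for the treated cells, with no swap. Read that way, the mean of red over green on all 4 arrays would be the treatment ratio, with the dye effect still in it. With no swap, treatment and dye effect cannot be told apart. Under that reading limma called 9.00% of all tested probes (2331 of 25912) and 12 of the 75 probes (16%), in 9 genes. Of these 12 probes 10 were below 0 and 2 above. The gene by its brightest probe was called in 1 case of 20, SDHB at 0.23 (adjusted p = 0.042 by limma).

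Probes of 1 gene did not move together under that reading. SDHB had 1 called probe above 0, at 0.23, and 1 below, at -0.27 (adjusted p = 0.042 and 0.027 by limma). NDUFC1 had a called probe at -0.43 (adjusted p = 0.011 by limma) and another at 0.01. COX7A2 had called probes at -0.44 and -0.30, and a further probe at 0.13. In ATP5O, 2 of 10 probes were called, at -0.41 and -0.31, while its highest probe was at 0.17. The median over the 20 genes was -0.04, and 13 of 20 genes had the sign opposite to that under the channel labels. A sign common to both readings was thus held by 7 of the 20 genes.

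The normalization bore on the sign as well. With each array's ratios centred on their median in place of loess, all 20 genes and 73 of 75 probes were above 0, with a gene median of 0.13 against 0.031 over all tested probes. In that setting limma again called 0 of 25912 probes. Many of the 75 probes are bright: 51 of them were among the brightest 2592 of all tested probes. Among those 2592, set apart after the data were seen, 87.0% of probes were above 0 with centring and 48.5% with loess, with medians of 0.08 and -0.002. In the dimmer 12956 probes the medians were 0.005 and 0.001.

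**Figure D5:**
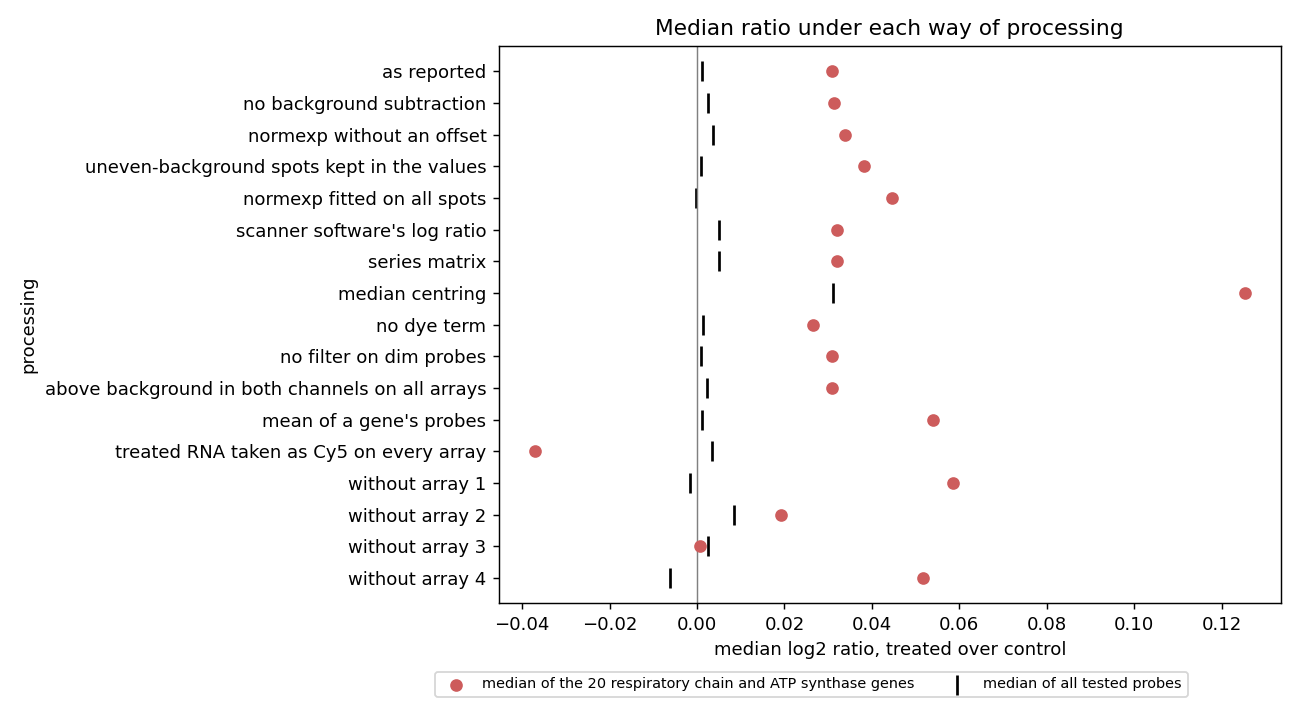
Median log2 ratio of treated over control (horizontal axis) of the 20 genes (red points; 19 genes without array 1, 2 or 4) and of all tested probes (black ticks) under each way of processing (vertical axis). The gene median is highest with median centring, below 0 when Cy5 is read as the treated channel throughout, and near 0 without array 3.

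Genes that act with the respiratory chain gave the same picture of small ratios. Of the lists with tested genes, limma called 0 genes at an adjusted p under 0.05 and 0 at an unadjusted p under 0.05. Over all tested probes, 0% and 2.77% passed these thresholds. Regulators of mitochondrial biogenesis had 3 of 7 tested genes above 0, with a median of -0.006. The highest was PPARGC1A, a coactivator that drives mitochondrial biogenesis, at 0.13 (-0.02 to 0.29), which was 0.04 with normexp fitted on all spots and -0.20 with Cy5 as the treated channel. The lowest was SIRT1, a deacetylase that acts on it, at -0.07 (-0.28 to 0.13). TFAM, which packages and transcribes mitochondrial DNA, was at 0.02 (-0.14 to 0.18).

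Enzymes of pyruvate oxidation and the citrate cycle had 9 of 13 tested genes above 0, with a median of 0.03. The lowest was DLD, the shared dihydrolipoamide dehydrogenase, at -0.03 (-0.18 to 0.12). Carriers, channels and uncoupling proteins had 5 of 9 above 0, with a median of 0.03, from VDAC3, an outer membrane channel, at -0.09 to UCP2, an uncoupling protein, at 0.08. ATPIF1, the inhibitor of ATP synthase, was at 0.04 (-0.10 to 0.18).

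The smaller lists were similar. The list of antioxidant and reactive oxygen genes had 4 of 5 above 0, with a median of 0.03. It ran from CAT, catalase, at -0.02 to PRDX5, a peroxiredoxin, at 0.10. Genes of mitochondrial dynamics and turnover had 2 of 4 above 0, with a median of 0.02, from BNIP3L, a mitophagy receptor, at -0.02 to HSPE1, a matrix chaperone, at 0.08. COQ4, of ubiquinone synthesis, was at -0.05, and MRPS18B, of the mitochondrial ribosome, was at 0.05. None of the 40 listed assembly factors and none of the 13 mitochondrially encoded subunits was matched to a probe by name.

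Of 12 endocrine cell markers tested, 4 were above 0 and 8 below under the channel labels, with a median of -0.07. With Cy5 read as treated throughout, 9 were above 0 and 3 below, with a median of 0.05. PRL was at -0.07 (-0.26 to 0.12) and GH1 at -0.09 (-0.27 to 0.09). In limma 0 of the 12 passed an unadjusted p of 0.05, and their part in the values of the respiratory chain genes was not tested.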

How the data were processed

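Array design 026440 was quantified by the authors with Agilent Feature Extraction 10.7.3.1, per the file headers. For each spot, the deposited files give the median foreground and the median local background of both channels as linear intensity. They also give the scanner software's log10 ratio of Cy5 to Cy3, per the file headers. The series matrix deposited beside them holds log2 ratios, which match those of the scanner's processed signals to within 0.01 for 99.99% of probes. The mean foreground that had been planned is not among the columns used here, and the median stood in for it.

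Background was corrected by normexp (offset 50) and ratios by loess within each array, in limma 3.58.1 under R 4.3.3. Control spots had weight 0. Spots with an outlier flag or an uneven local background, 939 to 1350 of 43803 per array for the latter, were left out. Spots of a probe were averaged. The model held a dye term and a treatment term and was moderated with eBayes, and tests were two-sided. p-values were adjusted by Benjamini-Hochberg over the 25912 tested probes. The scripts were tested on simulated data. The number of arrays limits the precision.

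The genes, the pathway lists and the marker lists were chosen with earlier results of these data known. Genes were named by rule: all with 3 or more probes, the highest, lowest and brightest of each complex, all with 1 sign on every array, tissue isoforms, and the highest and lowest of each pathway list. One gene that this rule names is not reported here. The other members, TFAM, ATPIF1, the endocrine markers, OXT and the 3 muscle genes were named after their values were seen. Marker lists of other cell types gave medians of -0.12 (folliculostellate, 1 gene), 0.006 (macrophage, 3), -0.006 (endothelial, 3), 0.02 (fibroblast and pericyte, 2), -0.003 (lymphocyte, 3), 0.04 (red blood cell, 1) and 0.03 (posterior lobe and nervous tissue, 3). SELP, an endothelial gene, had the only unadjusted p under 0.05 among them, at -0.23. Names came from RefSeq for Sscrofa11.1. No sequences or coordinates were used here.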

Additional observations from a re-analysis of the deposited data

Results flagged for a closer look

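In 4 of 87 sets of 4 array values, 1 array lay far from the other 3 by Dixon's test at the 95% level. Independent values drawn alike from a normal distribution would give about 1 in 20, or 4.35. These values still contain the dye effect, and many sets are probes of the same gene. That number is thus no measure of chance here. A probe of SDHB, the iron-sulphur subunit of complex II, read 2.49 on array 1 and -0.12 to 0.19 on the others. A probe of COX7A2, of complex IV, read 0.61 on array 1 and 0.04 to 0.09 on the others. A probe of CYCS, cytochrome c, read -0.38 on array 4 and 0.04 to 0.10 on the others. A probe of ATP5O, of the ATP synthase stalk, read -0.028 on array 4 and 0.11 to 0.13 on the others. Each is a log2 ratio, treated over control.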

How the results depend on the processing

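Among the 11 alternatives run on all 4 arrays with the channel labels kept, the direction was the same in every one for 11 of 20 genes, and for 5 of them also with any 1 array left out. UQCR10 turned sign in 5 of the 11, NDUFV2 and COX5B in 3 each. The median over the genes was 0.125 with median centring and 0.03 to 0.05 in the other 10. Limma called 0 probes in each of these alternatives where probes were counted. With Cy5 read as the treated channel throughout, which leaves the dye effect in the ratio, 2331 probes were called. Of the 20 genes 1 passed the adjusted and 3 the unadjusted threshold. With 1 array left out, the probes called ranged from 0 to 838 (0, 734, 1 and 838 without arrays 1, 2, 3 and 4). The genes at an unadjusted p under 0.05 ranged from 0 to 2, the 2 being COX6C and COX7C without array 4. Among the probes called without array 2, 3 or 4 was the SDHB probe carried by array 1. With 1 array left out, the gene median ranged from 0.00063 to 0.059. A fit on 3 arrays leaves 1 degree of freedom per probe. Without array 2 or 4 the moderation gave the named probes nearly the same variance. The calls in those fits thus do not measure the spread of a probe's own arrays. Of 599 values of named genes and probes under alternatives, 23 moved by more than the SD over arrays. The cause of these differences was not tested.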
